A study of Mus musculus with 6 samples.

Results

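The set described here holds 10 genes of lipid uptake and storage among the 24346 gene symbols measured in the series: *Mogat2*, *Dgat1*, *Dgat2*, *Cd36*, *Fabp4*, *Fabp5*, *Plin2*, *Lpl*, *Apoe* and *Abca1*. *Mogat2* was selected on its values in the only contrast of the series, JAK inhibitor against vehicle, where it was 1 of 15 genes with a limma adjusted p under 0.05. The other members were named around it with results of that contrast known. All values of the 10 genes in that contrast are therefore a description, given with standard errors, and an adjusted p appears for them only to describe how the set was chosen.

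RNA-Seq was performed on EGFP+ bone marrow cells sorted from the calvaria of CX3CR1-EGFP knock-in mice, in which the reporter sits at the *Cx3cr1* locus and marks cells of the monocyte lineage, osteoclast precursors included. The question was how a JAK inhibitor alters these cells during inflammatory bone destruction. Every mouse, controls included, carried the reporter allele and received lipopolysaccharide (LPS), a bacterial product that drives inflammation, at 20 mg/kg into the calvarial periosteum. The groups were 3 mice given the selective JAK1 inhibitor ABT-317 orally at 60 mg/kg, 2 doses per day for 5 days, and 3 mice given vehicle. Sex and age of these mice were not given in the sources used here, and no mice without LPS were part of the comparison. The p-values measure the spread between these mice only.

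Expression was given as FPKM, fragments scaled to transcript length and to the mapped fragments of the library, which allows levels to be compared between genes. FPKM summed to 758529, 688372 and 739909 in JAK inhibitor mice 1 to 3 and to 775790, 740921 and 752098 in vehicle mice 1 to 3. Read depth is unknown, so no counting interval can be given. Of the 24346 symbols, 8100 were listed at 0 in all 6 mice, and 11301 reached an FPKM of 1 in at least 1 mouse and were tested. All 10 lipid genes passed this filter, and each was at or above an FPKM of 1 in all 6 mice. Fold changes are JAK inhibitor minus vehicle on the log2(FPKM + 1) scale, which understates differences of genes at low levels. The median fold change of all tested genes was -0.00 on that scale.

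Vehicle mouse 3 stood apart from the other 5 mice. Across genes, which are not independent replicates, its Pearson correlations of log2(FPKM + 1) with the other mice lay between 0.958 and 0.975, whereas the 10 pairs among the other mice lay between 0.976 and 0.985. For all 10 lipid genes this mouse held an extreme of the vehicle group, the highest value for 6 genes and the lowest for 4. In a group of 3 any mouse is often an extreme, and the share over all tested genes was not taken. Nothing is therefore read from this count. Because of the lower correlations of vehicle mouse 3, fold changes of the 10 genes are given with and without it.

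The sorted cells carried the genes of their label. The summed FPKM of 9 monocyte markers was 5559, 5157 and 5591 in the JAK inhibitor mice and 5532, 5646 and 3867 in the vehicle mice, with *Ly6c2*, a surface antigen of inflammatory monocytes, making up most of the sum. Of these 9 markers 2 were higher and 3 lower with the JAK inhibitor at an unadjusted p under 0.05, beside 6.57 and 9.4% of all tested genes. The higher ones were *Ly86* and *Spn*, the lower ones *Itgam*, *Cd14* and *Fcgr1*, and the median fold change of the list was 0.01. *Cx3cr1*, named because it carries the reporter, was at 30.1, 29.5 and 36.1 against 30.1, 31.5 and 15.5, so vehicle mouse 3 was the lowest for both. Genes of neutrophils and their precursors were more abundant still, with summed FPKM of 26232, 18936 and 23366 against 21349, 18657 and 24182 over 11 listed markers, led by *S100a8*. *S100a8* is also expressed by monocytes, so the list does not separate these cell types fully. Adipocytes are the classical lipid-storing cells, and 5 of 9 adipocyte markers, *Adipoq*, *Lep*, *Plin1*, *Cidec* and *Pck1*, were listed at 0 in every mouse. The summed level of the adipocyte list was 14.1, 15.0 and 13.1 against 14.8, 12.3 and 21.7, most of it from the lipase gene *Lipe*.

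Myeloid cells take up fatty acids through surface receptors and from lipoproteins after extracellular lipolysis, and carry them inside the cell on fatty acid-binding proteins. Acyltransferases join fatty acids to glycerol to form diacylglycerol and then triacylglycerol, which is stored in droplets coated by perilipins. Cholesterol leaves macrophages through membrane transporters onto apolipoproteins, and lipid-activated nuclear receptors are known to control several of these genes in macrophages.

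**Figure D1:**
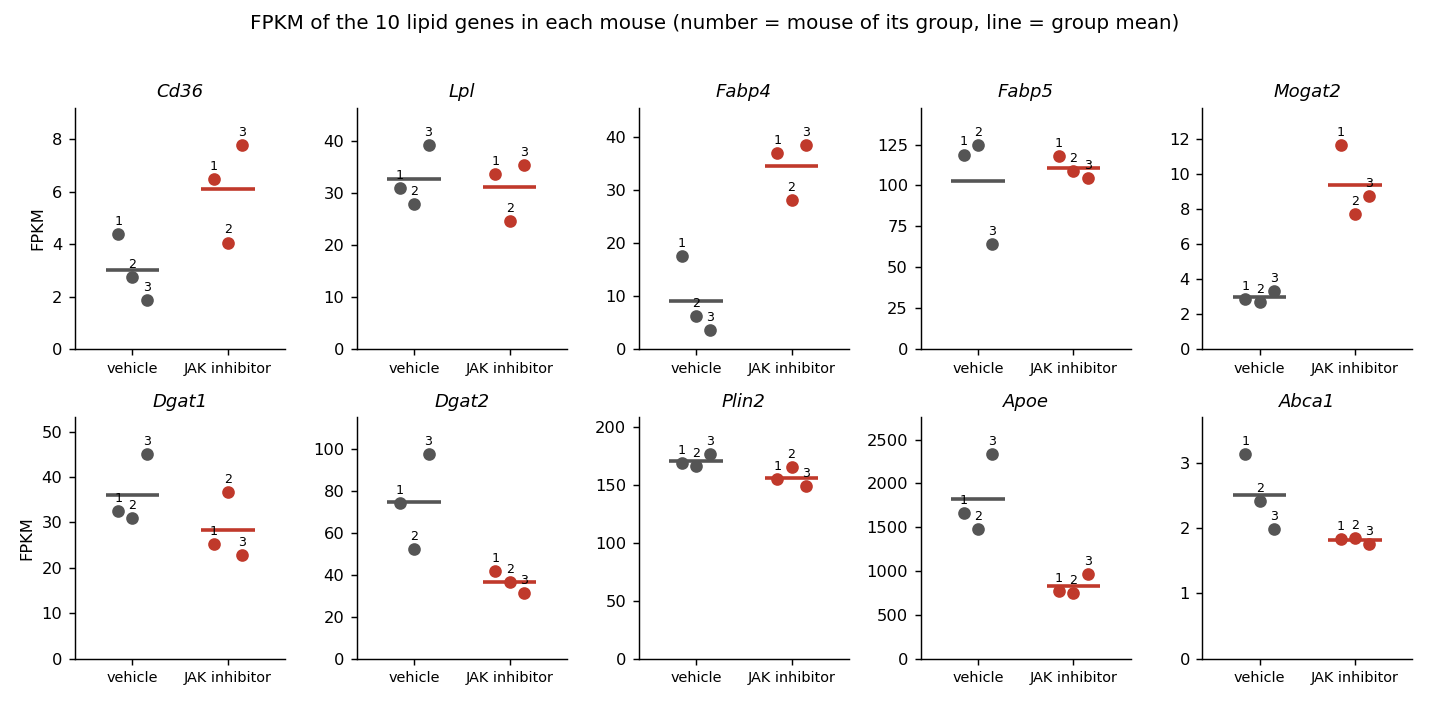
FPKM of the 10 genes in each mouse, 1 panel per gene, with JAK inhibitor and vehicle mice side by side and group means marked. *Mogat2* and *Fabp4* were higher in all 3 JAK inhibitor mice than in any vehicle mouse, and *Dgat2*, *Plin2*, *Apoe* and *Abca1* were lower.

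Uptake genes differed in how far the groups separated. *Cd36* encodes a scavenger receptor that takes up long-chain fatty acids and oxidized lipoproteins. Its FPKM was 6.49, 4.07 and 7.80 in the JAK inhibitor mice and 4.39, 2.75 and 1.88 in the vehicle mice. Vehicle mouse 3 was the lowest, and vehicle mouse 1 lay above JAK inhibitor mouse 2, so the groups overlapped. The fold change was 0.84 (standard error 0.28), and 0.63 (standard error 0.27) without vehicle mouse 3. *Lpl* encodes lipoprotein lipase, the enzyme that frees fatty acids from circulating lipoproteins. It was at 33.7, 24.6 and 35.3 with the JAK inhibitor and at 31.0, 27.9 and 39.3 with vehicle. The groups overlapped, and the fold change of -0.07 (standard error 0.17) changed sign in 3 of 14 alternative settings. Among them were those without vehicle mouse 3 (0.07) and without JAK inhibitor mouse 2 (0.09). It was -0.17 without vehicle mouse 2, -0.16 without JAK inhibitor mouse 3 and -0.13 without JAK inhibitor mouse 1. *Cd36* as a percentage of *Lpl* in the same mouse, a ratio that no library scaling affects, was 19.2, 16.5 and 22.1 against 14.2, 9.85 and 4.77, without overlap.

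A RefSeq promoter window of 300 bases around a transcription start was matched by symbol for 4 of the 10 genes, *Cd36*, *Plin2*, *Apoe* and *Abca1*, and not for *Mogat2*, *Dgat1*, *Dgat2*, *Fabp4*, *Fabp5* and *Lpl*. Each window was searched on both strands for AGGTCA, the hexamer bound by nuclear receptors that sense lipids, and for TTCNNNGAA, the palindrome bound by STAT dimers downstream of JAKs. Over all 32851 promoter windows of 300 bases, 16.3% held the first and 8.3% the second. Of the windows of these 4 genes, those of *Cd36* and *Plin2* held AGGTCA 1 time each, on the strand opposite to the gene, at positions -228 and -218 from the transcription start in RefSeq. The *Cd36* window lies at an alternative start inside the gene, whose outermost start in GENCODE M21 is at base 17888801, and *Apoe* had 3 windows, of which the one at its outermost start is shown. No window of the 4 genes held TTCNNNGAA, which says only that these letters are not in these windows. The windows of *Cd36* (chr5:17835847-17836146), *Plin2* (chr4:86670010-86670309) and *Apoe* (chr7:19699139-19699438), all on the minus strand of GRCm38.p6, are shown because these genes had no, little and large separation of the groups in turn. Capitals mark the hexamer as read on the gene's strand, and a match is a description of letters, not a binding site.
Cd36: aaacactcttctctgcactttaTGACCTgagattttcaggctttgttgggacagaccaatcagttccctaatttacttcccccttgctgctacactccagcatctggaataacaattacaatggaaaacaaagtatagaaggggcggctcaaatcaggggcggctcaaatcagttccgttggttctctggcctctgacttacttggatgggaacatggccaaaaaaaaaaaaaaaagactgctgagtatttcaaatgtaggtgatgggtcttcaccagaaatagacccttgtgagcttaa
Plin2: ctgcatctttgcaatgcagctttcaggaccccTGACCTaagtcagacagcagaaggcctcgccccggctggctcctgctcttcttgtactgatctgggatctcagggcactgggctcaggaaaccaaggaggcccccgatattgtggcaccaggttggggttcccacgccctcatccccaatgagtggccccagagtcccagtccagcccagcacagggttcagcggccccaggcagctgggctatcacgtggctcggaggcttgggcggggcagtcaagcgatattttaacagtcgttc
Apoe: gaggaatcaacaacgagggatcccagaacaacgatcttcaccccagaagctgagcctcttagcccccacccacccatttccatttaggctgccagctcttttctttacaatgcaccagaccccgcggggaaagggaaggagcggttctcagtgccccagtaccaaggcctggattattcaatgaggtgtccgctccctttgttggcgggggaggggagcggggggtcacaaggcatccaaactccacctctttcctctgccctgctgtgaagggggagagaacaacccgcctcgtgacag

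Fatty acid-binding proteins carry fatty acids through the cytosol. *Fabp4*, the form known from adipocytes and macrophages, was at 36.9, 28.2 and 38.6 in the JAK inhibitor mice and at 17.6, 6.16 and 3.67 in the vehicle mice. All JAK inhibitor mice lay above all vehicle mice, and the vehicle mice differed widely among themselves, with a coefficient of variation of 81.3% against 16.1% with the JAK inhibitor. The fold change was 2.05 (standard error 0.42), the highest of the 10 genes, and 1.61 (standard error 0.33) without vehicle mouse 3. *Fabp5*, the epidermal form that macrophages also express, was at 118.2, 109.0 and 104.4 against 118.9, 124.9 and 64.3. The groups overlapped because vehicle mouse 3 lay far below the other 5 mice. The fold change of 0.16 (standard error 0.22) turned to -0.14 (standard error 0.09) without that mouse and was also negative with library weights. It rose to 0.30 without vehicle mouse 1 and to 0.33 without vehicle mouse 2, so no direction can be given for *Fabp5*. *Fabp4* amounted to 31.2, 25.9 and 36.9% of *Fabp5* with the JAK inhibitor and to 14.8, 4.93 and 5.70% with vehicle, without overlap.

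*Fabp4* (chr3:10204088-10208576, minus strand) and *Fabp5* (chr3:10012548-10016607, plus strand; GRCm38, GENCODE M21) start 196 kb apart with 6 annotated genes between them. Of 18 other annotated genes that start within 150 kb of either, 7 had values and 2 were tested, *Impa1* with a fold change of 0.13 (standard error 0.10) and *Zfand1* with 0.26 (standard error 0.16), neither past the adjusted threshold. Of the related binding protein genes in this cluster, *Pmp2* and *Fabp9* were listed at 0 in all mice, and *Fabp12* was at 0.072 and 0.12 in vehicle mice 1 and 3 and at 0 in the other 4 mice. The coding sequences of *Fabp4* and *Fabp5* were identical at 66.6% of 383 aligned bases. Their longest shared run was 12 bases, far under the 75-base reads. That run is printed with 30 bases on each side, from a single exon of each gene, to show how the pair differs around it, with the run in capitals (GENCODE M21 on GRCm38; *Fabp4* chr3:10206050-10206121, minus strand; *Fabp5* chr3:10014972-10015043, plus strand).
Fabp4: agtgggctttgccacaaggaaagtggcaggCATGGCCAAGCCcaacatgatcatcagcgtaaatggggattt
Fabp5: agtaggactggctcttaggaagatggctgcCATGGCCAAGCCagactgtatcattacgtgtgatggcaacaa
Reads of 75 bases could still be shared with other copies: of 913 such stretches of the *Fabp5* transcript, 110 (12.0%) also occur in transcripts of the pseudogenes *Gm14328* and *Gm6166*, so the level of *Fabp5* is less certain. The shares were 1.6% for *Plin2* and 1.71% for *Lpl*, and 0 for the other 7 genes.

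Acyltransferases of glycerolipid synthesis differed in opposite directions. *Mogat2* encodes monoacylglycerol acyltransferase 2, which makes diacylglycerol from monoacylglycerol and is best known from the absorptive cells of the intestine. Its FPKM was 11.7, 7.72 and 8.72 in the JAK inhibitor mice and 2.87, 2.70 and 3.33 in the vehicle mice. Each JAK inhibitor mouse lay above each vehicle mouse, with means of 9.37 ± 2.05 and 2.97 ± 0.32 (SD, n = 3). The fold change was 1.37 (standard error 0.18), place 42 among 11301 tested genes from the highest, and 1.43 (standard error 0.20) without vehicle mouse 3. As a description of the selection, the limma adjusted p of *Mogat2* was 0.0324, inside the threshold of 0.05, and *Apoe*, the nearest of the 10 outside it, was at 0.0557. Over the alternative settings it ranged from 0.0138 to 0.206 for *Mogat2* and from 0.00467 to 0.228 for *Apoe*. The side of the threshold on which each lay thus depended on the setting.

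*Dgat2*, which encodes the diacylglycerol acyltransferase that completes triacylglycerol at droplets and the endoplasmic reticulum, differed the other way. It was at 41.9, 36.5 and 31.2 with the JAK inhibitor and at 74.0, 52.4 and 97.5 with vehicle. All vehicle mice lay above all JAK inhibitor mice, with vehicle mouse 3 the highest. The fold change was -0.98 (standard error 0.21), and -0.76 (standard error 0.16) without vehicle mouse 3. *Dgat1*, an enzyme of the same reaction but of another protein family, was at 25.3, 36.7 and 22.8 against 32.4, 31.0 and 45.0. The groups overlapped through JAK inhibitor mouse 2, and the fold change was -0.35 (standard error 0.20), or -0.19 (standard error 0.18) without vehicle mouse 3. It was -0.55 (standard error 0.18) without JAK inhibitor mouse 2 and -0.22 (standard error 0.21) without JAK inhibitor mouse 3.

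Within each mouse, *Mogat2* amounted to 27.8, 21.1 and 27.9% of *Dgat2* with the JAK inhibitor and to 3.88, 5.16 and 3.41% with vehicle. The groups were separate, as they were for *Mogat2* relative to *Dgat1*, at 46.1, 21.04 and 38.3% against 8.86, 8.72 and 7.39%. The summed FPKM of the 3 acyltransferases was lower with the JAK inhibitor, at 78.9, 81.0 and 62.7 against 109.3, 86.2 and 145.8, with the nearest mice close to each other. *Mogat2* thus took a larger share of a smaller sum: 14.8, 9.54 and 13.9% against 2.63, 3.14 and 2.28%. The share of *Dgat2* was 53.2, 45.1 and 49.8% against 67.7, 60.9 and 66.9%, also without overlap, and the share of *Dgat1* overlapped. *Dgat2* and *Dgat1* transcripts remained more abundant than *Mogat2* in every mouse.

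**Figure D2:**
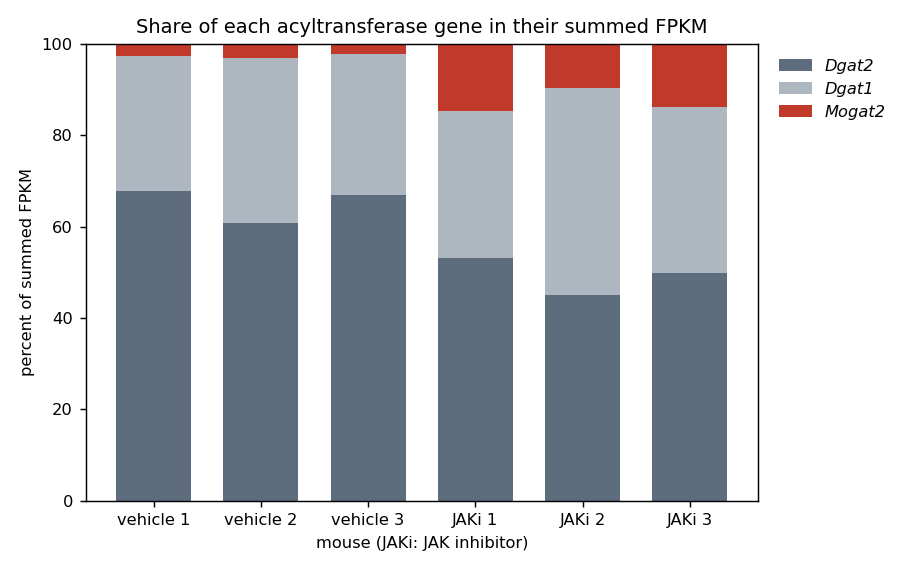
Share of each of *Mogat2*, *Dgat1* and *Dgat2* in their summed FPKM, in percent, for each mouse. The *Mogat2* share was between 9.54 and 14.8% in JAK inhibitor mice and between 2.28 and 3.14% in vehicle mice.

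*Mogat2* (chr7:99219084-99238619) and *Dgat2* (chr7:99153658-99182719) lie next to each other on the minus strand (GRCm38, GENCODE M21), separated by 36.4 kb with no annotated gene between them. An antisense gene, *Gm45012*, overlaps *Mogat2* on the opposite strand. The sample labels name a SMART-Seq HT and Nextera kit, which does not keep strand. The study's methods name a stranded kit, so whether strand was kept is unknown. The *Mogat2* transcript with the longest coding sequence shared no 75-base stretch, on either strand, with annotated transcripts of this antisense gene. Of 11 other annotated genes starting within 150 kb, 5 had values and 1 was tested: *Uvrag*, an autophagy gene, at 33.5, 33.6 and 29.4 against 29.3, 27.5 and 27.5. Its fold change was 0.19 (standard error 0.10) with a limma adjusted p of 0.42, and the other 4, *Map6*, *Serpinh1*, *Gdpd5* and *Gm26705*, stayed under an FPKM of 1. *Mogat2* and *Dgat2*, neighbours on the chromosome, thus had fold changes of opposite sign. Their coding sequences were identical at 64.8% of 970 aligned bases, with a longest shared run of 14 bases, and no 75-base stretch of either occurred in a transcript of another gene. The run is shown with 30 coding bases on each side to place the relatedness of the pair, with the run in capitals. The windows are coding bases 803 to 876 of *Mogat2* (chr7:99219934-99222300) and 965 to 1038 of *Dgat2* (chr7:99154675-99157024), minus strand, GENCODE M21 on GRCm38, each joined across an intron.
Mogat2: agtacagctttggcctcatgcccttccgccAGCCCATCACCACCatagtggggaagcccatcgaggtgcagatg
Dgat2: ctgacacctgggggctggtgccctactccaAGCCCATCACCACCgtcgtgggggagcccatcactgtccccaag

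Of the genes whose groups were separate, *Plin2* had the fold change nearest to 0. It encodes perilipin 2, the droplet coat protein of most cells outside adipose tissue. Its FPKM was 155.2, 165.3 and 148.9 in the JAK inhibitor mice and 168.9, 166.2 and 176.7 in the vehicle mice. The groups did not overlap, but JAK inhibitor mouse 2 and vehicle mouse 2 differed by 0.865 FPKM only. The fold change was -0.12 (standard error 0.08), -0.10 (standard error 0.09) without vehicle mouse 3 and -0.05 (standard error 0.09) with quantile normalization.

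The efflux genes of the set, *Apoe* and *Abca1*, differed in how far they separated. *Apoe* encodes apolipoprotein E, which macrophages secrete and which accepts cholesterol. It was the most abundant of the 10 genes, at 771.7, 752.6 and 970.3 with the JAK inhibitor and at 1658, 1479 and 2332 with vehicle. All vehicle mice lay above all JAK inhibitor mice by at least 508.6 FPKM, and the fold change was -1.11 (standard error 0.17), or -0.92 (standard error 0.12) without vehicle mouse 3. By mean level it stood at place 46 of 11301 tested genes in vehicle mice and at place 138 in JAK inhibitor mice. *Abca1*, the transporter that moves cholesterol out of the cell, was at 1.84, 1.85 and 1.76 against 3.13, 2.42 and 1.99. The groups did not overlap, though vehicle mouse 3 came within 0.139 FPKM of a JAK inhibitor mouse. Its fold change was -0.31 (standard error 0.19), or -0.42 (standard error 0.21) without vehicle mouse 3 and -0.18 (standard error 0.22) without vehicle mouse 1, the highest of the group.

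**Figure D3:**
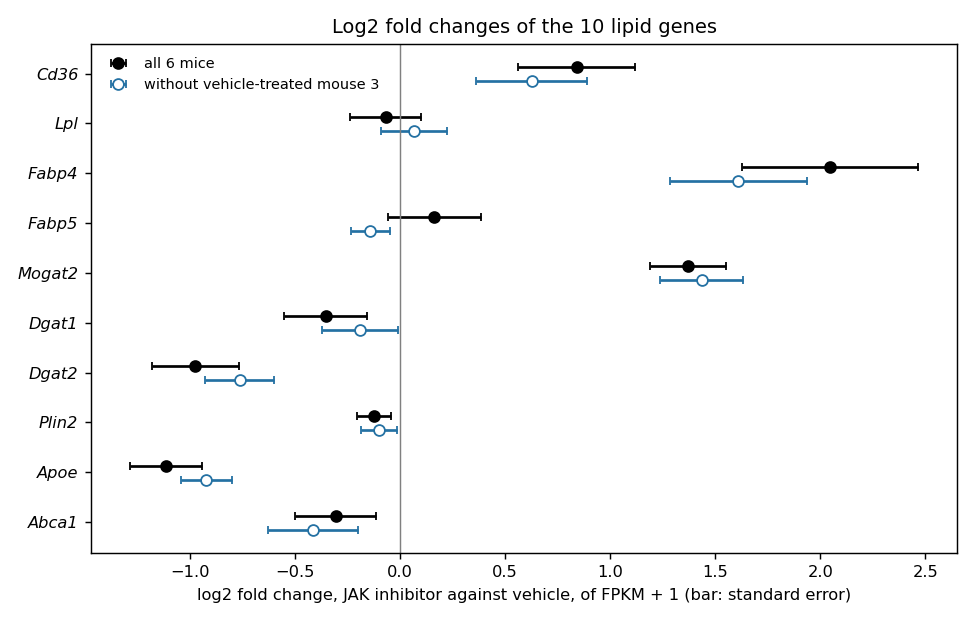
Fold change of the 10 genes, JAK inhibitor minus vehicle, on the log2(FPKM + 1) scale with standard errors, for all 6 mice and without vehicle mouse 3. *Fabp4* (2.05) and *Apoe* (-1.11) mark the ends, and *Fabp5* and *Lpl* changed sign without vehicle mouse 3.

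In all, 4 of the 10 genes had a positive and 6 a negative fold change. The groups did not overlap for 6 of 10 genes, 2 higher and 4 lower with the JAK inhibitor, beside 22% of all tested genes in either direction. A limma adjusted p under 0.05 was reached by 1 of 10, beside 0.133% of tested genes. Over the alternative settings it ranged from 0.0138 to 0.206 for *Mogat2* and from 0.00467 to 0.228 for *Apoe*. For *Fabp4* the range was 0.00738 to 0.3 and for *Dgat2* 0.0257 to 0.302. Since the genes were chosen with this contrast known, nothing is read from these shares.

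The order of levels was alike at the top in both groups. In vehicle mice the mean FPKM ran from *Apoe* (1823) and *Plin2* (171) over *Fabp5* (103), *Dgat2* (74.7), *Dgat1* (36.1), *Lpl* (32.8) and *Fabp4* (9.15) to *Cd36* (3.01), *Mogat2* (2.97) and *Abca1* (2.51). Neighbours in this order whose ranges overlapped were *Fabp5* and *Dgat2*, *Dgat1* and *Lpl*, and each pair from *Fabp4* down to *Abca1*. In JAK inhibitor mice *Apoe* (832), *Plin2* (156), *Fabp5* (111) and *Dgat2* (36.6) kept their places, followed by *Fabp4* (34.6), *Lpl* (31.2), *Dgat1* (28.3), *Mogat2* (9.37), *Cd36* (6.12) and *Abca1* (1.82). There the ranges of *Dgat2*, *Fabp4*, *Lpl* and *Dgat1* overlapped from each to the next, as did those of *Mogat2* and *Cd36*. *Fabp4* moved from place 7 to place 5 and *Mogat2* from place 9 to place 8.

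To see which genes had a pattern like that of *Mogat2*, the log2(FPKM + 1) values of each gene were centred on their mean over the 6 mice and the root mean square difference from *Mogat2* was taken over 11300 other tested genes. The nearest were *Zfp467* (0.230), *Hpgd* (0.230), *Spag11b* (0.241), *Tgfbr3* (0.247) and *Rhd* (0.266). *Tgfbr3* and *Rhd* reached an FPKM of 1 in JAK inhibitor mice only, through which they passed the filter. *Hpgd* encodes the enzyme that inactivates prostaglandins and was at 15.7, 12.4 and 16.7 against 5.98, 4.93 and 8.50. *Zfp467*, a zinc finger gene, was at 8.97, 7.27 and 8.99 against 2.84, 2.01 and 1.80. Both were higher in all 3 JAK inhibitor mice, as was *Mogat2*, by the construction of the measure. Among the lipid genes *Cd36* was the nearest at place 124 (0.46), and *Dgat2* at place 11012 (1.19) and *Apoe* at place 11074 (1.27) were the farthest. The values share the 6 libraries and carry no test.

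**Figure D4:**
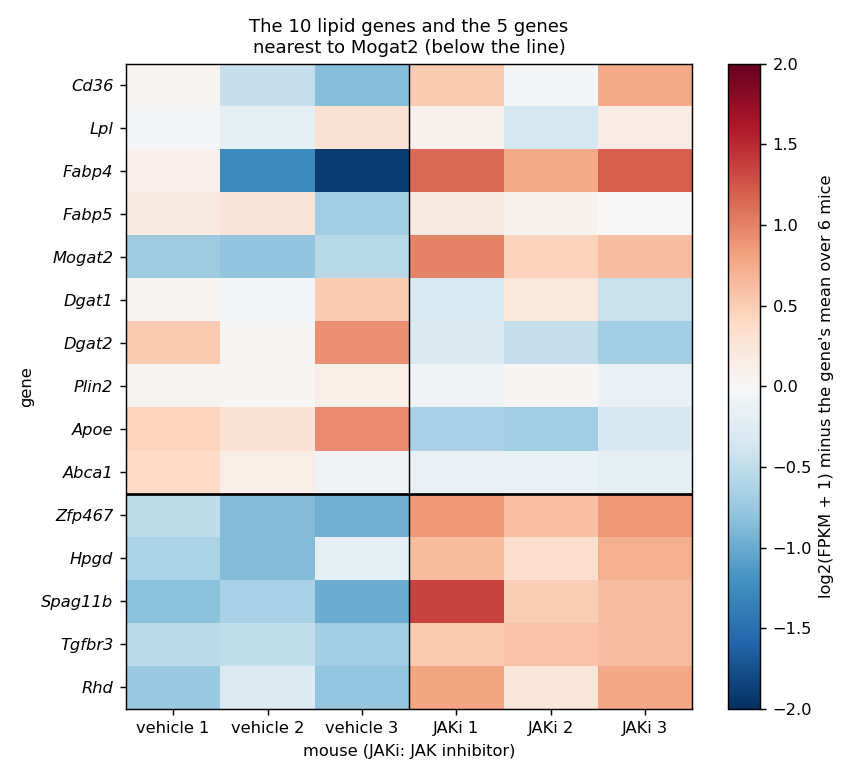
Centred log2(FPKM + 1) of the 10 genes and of the 5 genes nearest to *Mogat2*, in each of the 6 mice. *Mogat2*, *Fabp4* and the 5 nearest genes were above their means in the JAK inhibitor mice, with *Dgat2* and *Apoe* below theirs.

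Other genes of lipid handling were taken from 10 lists. Of 169 genes that are not among the 10, 131 were tested, and no gene had a limma adjusted p under 0.05. At an unadjusted p under 0.05, 12 (9.16%) were higher and 14 (10.7%) lower with the JAK inhibitor, beside 6.57 and 9.4% of all tested genes. The same shares of all tested genes apply to the counts of each list below. Without JAK inhibitor mouse 1 the lower genes were 6 (4.62%), beside 7.43% of all tested genes, and without vehicle mouse 3 they were 8 (6.11%), beside 8.12%, so the share of lower genes moved from above to below that of all genes. The median fold change was -0.04, beside -0.00 over all tested genes, with 58 positive and 73 negative values. Of the 26 genes at an unadjusted p under 0.05, 9 kept it in each of 14 alternative settings: *Pparg*, *Elovl5*, *G0s2*, *Hsd17b11* and *Lipa*, which were higher, and *Pmvk*, *Nr1h3*, *Slc27a1* and *Soat2*, which were lower. The other 17 lost it in between 1 and 7 settings. *Soat2* and *Ppargc1b* reached an FPKM of 1 in vehicle mice only, and *Slc27a3* in JAK inhibitor mice only. Each thus passed the filter through the group where it was higher. The filter favoured their signs, and their calls are a description only. The groups overlapped for *Gpam*, *Fabp7*, *Lmf1*, *Apoc2*, *Cyp27a1*, *Gramd1b*, *Ppargc1b*, *Scd2* and *Elovl1* and were separate for the rest of the 26. Without vehicle mouse 3 the fold change moved from -0.53 to -0.29 for *Acadl*, from -0.61 to -0.32 for *Msr1* and from 0.58 to 0.31 for *Cyp27a1*. It moved from -1.03 to -0.62 for *Fabp7*, from 1.14 to 0.73 for *G0s2*, from -0.47 to -0.30 for *Scd2* and from -0.74 to -0.48 for *Ppargc1b*. That of *Apoc2* moved from 0.45 to 0.27 without vehicle mouse 2, and no other of the 26 moved by over 1.5 times when a mouse was left out. With a pseudocount of 0.1, which raises differences at low levels, it moved to 1.995 for *Slc27a3*, to -2.68 for *Soat2* and to -1.34 for *Ppargc1b*.

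**Figure D5:**
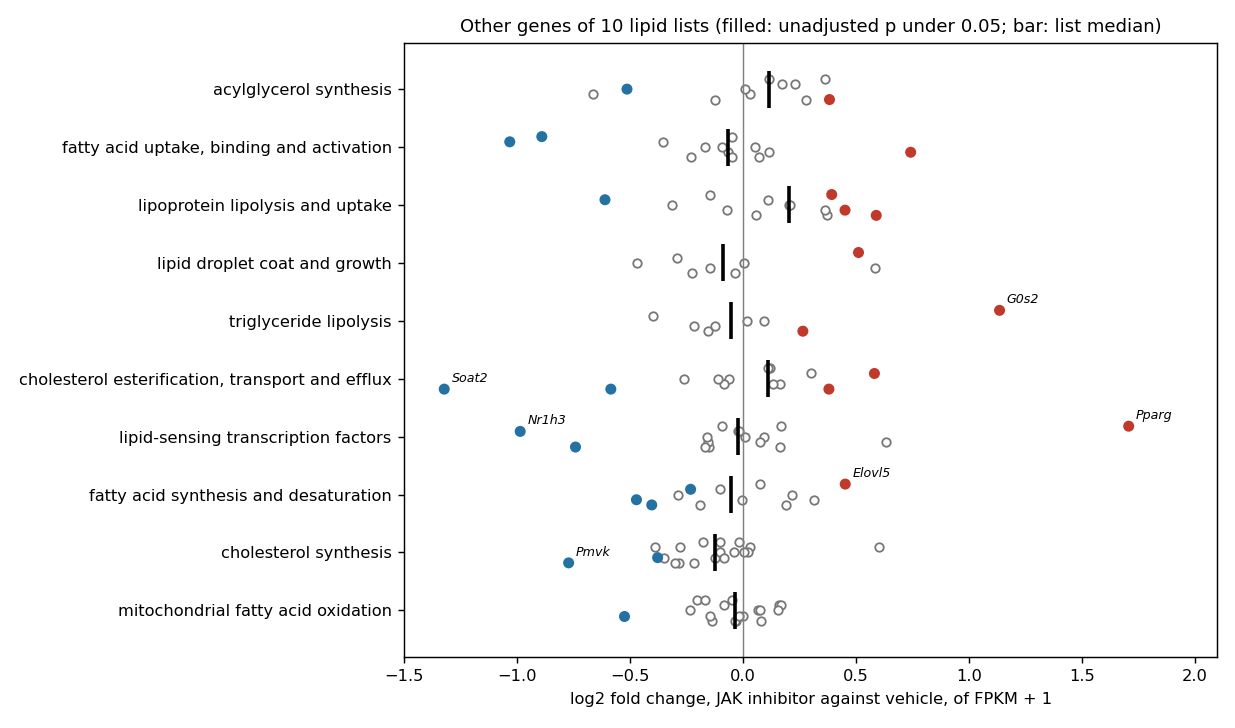
Fold change of each tested gene in the 10 lipid lists, JAK inhibitor minus vehicle on the log2(FPKM + 1) scale, with list medians. *Pparg* (1.71) and *Soat2* (-1.32) were the extremes on this scale, and with a pseudocount of 0.1 *Slc27a3* (1.995) and *Soat2* (-2.68) lay farther out. *Soat2* passed the filter through vehicle mice only and *Slc27a3* through JAK inhibitor mice only.

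Among lipid-sensing transcription factors, *Pparg*, the nuclear receptor of adipocyte and macrophage lipid storage programmes, was at 15.4, 20.1 and 17.8 in JAK inhibitor mice and at 4.35, 10.1 and 2.14 in vehicle mice. It was above every vehicle mouse in 3 of 3 JAK inhibitor mice, with a fold change of 1.71 (standard error 0.38) and a limma adjusted p of 0.109, which misses the threshold and ranged from 0.0149 to 0.302 over the alternatives. *Nr1h3*, which encodes the oxysterol receptor LXR alpha, was at 5.32, 1.81 and 3.21 against 9.28, 6.78 and 6.27, lower in 3 of 3 mice, with a fold change of -0.99 (standard error 0.29) and a limma adjusted p of 0.159. The list also holds cofactors and other regulators that are not transcription factors, such as *Scap*, *Insig1*, *Insig2* and *Mylip*. Of its 16 tested genes, 1 was higher and 2 were lower at an unadjusted p under 0.05, *Nr1h3* and the coactivator gene *Ppargc1b*, with a median of -0.02, and the most abundant, *Mlx*, had a fold change of -0.16 (standard error 0.09). The related receptor gene *Ppara* was listed at 0 in every mouse.

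Among the 11 tested genes of acylglycerol synthesis other than the 3 acyltransferases, 1 was higher (*Lpin2*, 0.38, standard error 0.16) and 1 lower (*Gpam*, -0.51, standard error 0.21) at an unadjusted p under 0.05, with a median of 0.11. *Agpat2*, the most abundant, had 0.03 (standard error 0.13). *Mogat1*, the other monoacylglycerol acyltransferase gene, was listed at 0 in all mice. The uptake, binding and activation list held 13 tested genes, 1 higher and 2 lower, with a median of -0.07. The fatty acid transporter gene *Slc27a1* was at 4.10, 4.58 and 2.80 against 5.50, 7.15 and 12.0, a fold change of -0.89 (standard error 0.27). *Slc27a3* had 0.74 (standard error 0.27) at low levels and *Fabp7*, a binding protein gene known from the brain, -1.03 (standard error 0.42). *Dbi*, which encodes the acyl-CoA-binding protein and was the most abundant, had -0.07 (standard error 0.11).

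Lipoprotein lipolysis and uptake held 13 tested genes, 3 higher and 1 lower, with a median of 0.20. *Lipa*, the lysosomal acid lipase gene, was at 70.2, 64.1 and 74.5 against 55.3, 57.7 and 45.8, a fold change of 0.39 (standard error 0.11). *Apoc2*, which encodes the cofactor of lipoprotein lipase, had 0.45 (standard error 0.17), *Lmf1*, a lipase maturation gene, 0.59 (standard error 0.21), and the scavenger receptor gene *Msr1* -0.61 (standard error 0.23). The droplet list held 8 tested genes, with *Hsd17b11* higher (0.51, standard error 0.15), no gene lower and a median of -0.09. *Bscl2*, which encodes seipin and was the most abundant, had -0.04 (standard error 0.10). *Plin1*, *Cidea* and *Cidec*, droplet proteins of fat cells, were listed at 0 throughout. In triglyceride lipolysis 2 of 8 tested genes were higher, *G0s2*, an inhibitor of the triglyceride lipase ATGL, at 20.8, 13.8 and 13.7 against 7.89, 10.6 and 3.36 (1.14, standard error 0.33), and *Abhd12* (0.26, standard error 0.09), with a median of -0.05.

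Cholesterol esterification, transport and efflux held 13 tested genes, 2 higher and 2 lower, with a median of 0.11. *Soat2*, which encodes a cholesterol acyltransferase, was at 0.510, 0.184 and 0.120 against 1.48, 1.24 and 4.67, a fold change of -1.32 (standard error 0.36). It passed the filter through vehicle mice only. *Abca7* had 0.38 (standard error 0.12), *Cyp27a1* 0.58 (standard error 0.23) and *Gramd1b* -0.59 (standard error 0.23). *Pltp*, the phospholipid transfer protein gene and the most abundant, had 0.30 (standard error 0.15). Cholesterol synthesis, with 19 tested genes, had 2 lower and 0 higher, a median of -0.13 and 15 negative values. *Pmvk*, which encodes phosphomevalonate kinase, was at 20.5, 20.9 and 20.9 against 33.1, 34.6 and 41.2, lower in 3 of 3 mice, with a fold change of -0.77 (standard error 0.11) and a limma adjusted p of 0.0526, just outside the threshold and between 0.0208 and 0.226 over the alternatives. *Sc5d* had -0.38 (standard error 0.12) and *Fdps*, the most abundant, -0.22 (standard error 0.12).

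Fatty acid synthesis and desaturation held 12 tested genes, 1 higher and 3 lower, with a median of -0.05. The elongase gene *Elovl5* was at 84.7, 90.4 and 80.9 against 64.0, 66.9 and 55.8, a fold change of 0.45 (standard error 0.10) with a limma adjusted p of 0.109. *Fasn*, the fatty acid synthase gene, had -0.40 (standard error 0.15), *Scd2* -0.47 (standard error 0.19) and *Elovl1* -0.23 (standard error 0.10). In mitochondrial fatty acid oxidation 1 of 18 tested genes was lower, *Acadl* (-0.53, standard error 0.18), none was higher at an unadjusted p under 0.05, and the median was -0.03. *Etfb*, the most abundant, had 0.08 (standard error 0.15). The medians of the uptake, lipolysis, transcription factor, fatty acid synthesis and oxidation lists changed sign in at least 1 alternative setting. The other 5 medians kept their sign but moved, from 0.02 to 0.17 for acylglycerol synthesis, 0.08 to 0.24 for lipoproteins, -0.14 to -0.04 for droplets, 0.01 to 0.16 for cholesterol esterification, transport and efflux, and -0.26 to -0.11 for cholesterol synthesis. Without JAK inhibitor mouse 3 those of acylglycerol synthesis, cholesterol efflux and cholesterol synthesis were 0.02, 0.01 and -0.26. The acylglycerol median was 0.17 without JAK inhibitor mouse 2. The efflux median was 0.06 without JAK inhibitor mouse 2, and 0.16, 0.07 and 0.06 without vehicle mice 1, 2 and 3. No list median is therefore read as a direction of its list.

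Markers of other cell types moved with the treatment groups too. Of 10 tested macrophage markers 9 had negative fold changes, with a median of -1.11. At an unadjusted p under 0.05, 5 of the 10 were lower, beside 9.4% of all tested genes: *C1qa*, *C1qb*, *C1qc*, *Mertk* and *Marco*. The summed FPKM of all 11 in the list was 668, 528 and 576 in JAK inhibitor mice and 903, 839 and 744 in vehicle mice, without overlap, with *Cd68* the most abundant and no marker at 0 in all mice. All 6 tested osteoclast markers had negative fold changes, with a median of -1.46. At an unadjusted p under 0.05, 5 of the 6 were lower, beside 9.4% of all tested genes: *Acp5*, *Ctsk*, *Ocstamp*, *Dcstamp* and *Atp6v0d2*. *Ocstamp*, *Dcstamp* and *Oscar* reached an FPKM of 1 in vehicle mice only. The filter thus favoured their sign, and the counts and the median that include them are a description only. The summed FPKM of the osteoclast list was 112, 107 and 112 against 260, 166 and 577. *Acp5*, which encodes tartrate-resistant acid phosphatase, was the most abundant and *Calcr* was at 0 in all mice. Vehicle mouse 3 was the highest of all mice for the osteoclast sum and for *Dgat2*, *Apoe*, *Dgat1*, *Lpl* and *Plin2*. Among vehicle mice it was the lowest for the macrophage sum and for *Abca1*, *Cd36*, *Fabp4* and *Fabp5*. In sorted cells measured in bulk, fewer cells of a type and less RNA per cell cannot be told apart. The part of these markers in the lower levels of *Apoe*, *Dgat2* and *Abca1*, and in the levels of the other lipid genes, was not tested.

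Of 11 tested neutrophil markers 4 were higher at an unadjusted p under 0.05, the granule genes *Elane* (1.12, standard error 0.29), *Mpo* (0.93, standard error 0.29), *Prtn3* (0.47, standard error 0.17) and *Camp* (1.64, standard error 0.29), and 1 was lower, *Mmp8* (-1.06, standard error 0.23). The groups were separate for each of these 5. Of the 11 fold changes 7 were positive and 4 negative, with a median of 0.47. The sums, led by *S100a8* with a fold change of -0.56 (standard error 0.29), overlapped. Of all tested genes 6.57% were higher and 9.4% lower at that unadjusted threshold. Erythroid markers, with a most abundant gene *Hba-a1*, summed to 8.13, 6.68 and 51.4 against 3.44, 3.52 and 0.743, without overlap and with JAK inhibitor mouse 3 far above the others. Of 5 tested erythroid markers 2 were higher at an unadjusted p under 0.05, *Hba-a1* and *Klf1*, beside 6.57% of all tested genes. *Hba-a1* reached an FPKM of 1 in JAK inhibitor mice only, through which it passed the filter. No gene of these marker lists had a limma adjusted p under 0.05. *Rhd*, 1 of the 5 genes nearest to *Mogat2* in pattern, encodes a red cell antigen. It was low, at 1.945, 1.016 and 1.909 against 0.018, 0.418 and 0, and passed the filter through JAK inhibitor mice only. The part of the neutrophil and erythroid markers in the higher levels of *Mogat2*, *Fabp4* and *Cd36* was not tested.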

How the data were processed

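The deposited values are FPKM per gene, 1 table per mouse, made by the authors from 75-base single-end reads. The submitters' processing notes name TopHat2 2.0.13, Bowtie2 2.2.3, SAMtools 0.1.19, Cufflinks 2.2.1 and mm10. Labels and methods name different library kits. FPKM keep no depth: the most frequent ratio of low values between mice held at most 44 genes in a bin (2.2%), so relative depth was not estimated and no intervals from counts are given.

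Values were tested as log2(FPKM + 1) with limma 3.58.1 (R 4.3.3), with a mean trend and Benjamini-Hochberg adjustment, over genes that reached an FPKM of 1 in 1 mouse or more, and the procedure was tested on simulated data. Alternatives changed the pseudocount, filter, scaling, variance model, weights, replicate block and mice. A permutation test of 3 against 3 mice cannot go below 0.1 and was not used. Summaries were computed in Python 3.11.15 using pandas 2.3.3 and NumPy 2.4.6, and plots were drawn in matplotlib 3.10.9. Genes were named as the 10 chosen ones, up to 2 higher and 2 lower genes by smallest p and the most abundant per lipid list, the 5 nearest to *Mogat2*, neighbours within 150 kb, and the most abundant and absent markers. *Mogat1*, *Ppara*, *Cidea*, *Cx3cr1* and markers given by name beside counts were chosen after their values were seen. The genes and lists were chosen with earlier results of these data known. Promoters are from RefSeq (GRCm38.p6), coding sequences and positions from GENCODE M21 (GRCm38).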

Additional observations from a re-analysis of the deposited data

How the results depend on the processing

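The number of genes with a limma adjusted p under 0.05 was 15 and depended on the settings. It was 2 with no filter, 34 when genes had to reach an FPKM of 1 in 3 mice or more, 2 with no trend and 63 with library weights. Leaving out 1 mouse at a time gave between 3 and 95 genes: 5 without JAK inhibitor mouse 1, 6 without mouse 2, 3 without mouse 3, 19 without vehicle mouse 1, 95 without vehicle mouse 2 and 94 without vehicle mouse 3. The *Mogat2* fold change was positive in all settings, from 1.22 to 1.61, the latter with a pseudocount of 0.1, which weighs low values more. Its adjusted p, which chose it, ranged from 0.0138 to 0.206 and missed the threshold in 6 of 14 settings. The number of lipid list genes lower at an unadjusted p under 0.05 was 14 and lay between 6 and 14 when mice were left out, with 6 without JAK inhibitor mouse 1 and 8 without vehicle mouse 3. The fold changes of *Fabp5* and *Lpl* changed sign in 2 and 3 of 14 settings and those of the other 8 genes in 0. Where no construction shows it, the cause was not tested.

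With the replicate block, the number in the label as a factor, 67 genes had an adjusted p under 0.05. The deviations of same-numbered mice from their group means correlated at 0.0158, 0.0542 and -0.0002 across genes, none over 0.1. Of the 3 JAK inhibitor mice, 1 correlated best with its own number. No pairing by number was thus seen in these values. The sample titles give only group and number, and so few mice cannot exclude a shared batch.

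Depth is unknown, so low values such as those of *Abca1*, *Soat2* and *Slc27a3* carry an unknown counting error. Reads that *Fabp5* shares with pseudogenes cannot be told apart in these values. Whether strand was kept is unknown, and *Mogat2* shared no 75-base stretch, on either strand, with annotated transcripts of other genes.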

Other observations

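The summed levels of 4 other marker lists overlapped between the groups. Of 9 stromal and osteoblast markers 8 never reached an FPKM of 1, and *Sp7* was listed at 0, with sums of 1.61, 3.43 and 1.77 in JAK inhibitor mice and 1.28, 1.67 and 2.19 in vehicle mice, led by *Pdgfrb*. Endothelial markers came almost wholly from *Pecam1*, which myeloid cells also express, with sums of 31.0, 34.6 and 25.3 against 27.6, 16.6 and 11.9 and *Gpihbp1* at 0. *Pecam1*, the 1 tested gene of that list, was higher with the JAK inhibitor at an unadjusted p under 0.05 (0.75, standard error 0.26). Dendritic cell markers, led by *Flt3*, summed to 31.6, 37.5 and 45.3 against 39.9, 49.4 and 34.1, and of 5 tested 1 was higher at an unadjusted p under 0.05, *Cd209a* (1.16, standard error 0.47), named after its value was seen. B and T lymphocyte markers, led by *Cd79b* and with *Ms4a1* at 0, summed to 33.1, 29.5 and 37.0 against 29.1, 32.8 and 28.0. No other gene of these 4 lists had an unadjusted p under 0.05, and none had a limma adjusted p under 0.05. Of all tested genes 6.57% were higher and 9.4% lower at an unadjusted p under 0.05.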
